A study of Rattus norvegicus with 4 samples.

Results

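The solute carrier (SLC) genes expressed in rat embryonic stem cells (ESCs) were examined in the RNA-seq data of *Thop1*-knockout (KO) and control cells. They were selected on their symbol (Slc, a family number, a letter and a member number), on being protein coding, and on a sum of at least 200 raw counts over the 4 libraries. These rules took 165 of the 360 protein-coding SLC genes in a table of 34773 genes. Of the 165 genes, 29 belonged to the Slc25 family of mitochondrial carriers and 136 to other families. The summed count is thus the measured value that chose the members, and their expression levels are given as a description. The genes just inside the rule were *Slc2a10* (200 counts), *Slc2a4* (205) and *Slc35b3* (211), and just outside it *Slc17a7* (184), *Slc25a40* (186) and *Slc35f2* (186). All 165 passed the filter on low counts. Among the 195 SLC genes under the rule, 64 had 0 counts in every library and 57 passed that filter. The 4 symbols *Slc9a3r1*, *Slc9a3r2*, *Slc7a6os* and *Slc4a1ap* name adaptor or neighbouring genes and not transporters. They were kept because the rule takes them, and none of them was called.

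SLC proteins carry sugars, amino acids, nucleosides, vitamins, organic acids and ions across the plasma membrane and the membranes of organelles, either down a gradient or coupled to another ion. Slc25 carriers sit in the inner mitochondrial membrane, where they exchange adenine nucleotides, phosphate, amino acids, carboxylates and cofactors between the matrix and the cytosol. Pluripotent stem cells are known for brisk glucose uptake and lactate release and for a strong need for several amino acids.

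The control was 1 library of DA-5-3 GFP, a rat ESC line with a *Rex1*-GFP reporter, labelled WT. The other group was 3 subclones with *Thop1* knocked out (#1, #2 and #3), each sequenced once, all descended from that line after transfection with a Cas9 and puromycin resistance vector and a guide to *Thop1*, drug selection and picking of single colonies. Each subclone is 1 clone, and both groups carried the reporter and are described as grown on feeder cells in medium with 2 inhibitors (PD0325901 and CHIR99021) and LIF. The study's text treats DA-5-3 as diploid wild-type ESCs, while the deposited design text calls the cells haploid, and which holds for these libraries was not tested. Poly(A) RNA was sequenced, and totals of 15405499 to 17936544 counts lay on genes. *Thop1*, which encodes a zinc peptidase that degrades short peptides, had 5500 counts in the control and 1843, 1635 and 2680 in #1, #2 and #3, so that all subclones lay under the control without reaching 0. By edgeR's quasi-likelihood test, the log2 fold change was -1.66 with a standard error of 0.29 and a Benjamini-Hochberg adjusted p of 0.0187. Of the rat ESC markers, 9 of 10 symbols were found, and their summed level in TMM-normalised CPM (read counts scaled to a common library size) was 3158 in the control and 2878 to 3181 in the subclones. Single ESC markers moved in opposite directions within this sum: by edgeR *Esrrb* (log2 fold change 4.30) and *Tfcp2l1* (2.89) were called higher and *Utf1* (-1.51) lower. Feeder or fibroblast markers summed to 1846 CPM in the control and to 4121, 4413 and 4307 in #1, #2 and #3. Most of this sum was *Fn1*, and *Dcn*, *Lum* and *Thy1* were at 0 in every library. *Col1a1* had 190 CPM in the control and 304, 555 and 374 in the subclones, and *Col3a1* 6.39 against 16.2, 80.0 and 36.9. Of the 6 genes of this list that were tested, 5 had the control below all subclones. In 1, *Acta2*, the control lay above them. Primitive endoderm markers summed to 111 CPM against 172, 328 and 208, nearly all of it *Sparc* (108 against 165, 323 and 204). By edgeR none of the 5 tested markers was called. For 4 of them each subclone exceeded the control, while *Gata4* went the other way (1.14 CPM against 0.18, 0 and 0.17). Early differentiation markers summed to 13.5 CPM against 5.31, 8.48 and 5.34. This fall lay in *Nes* (8.48 CPM against 0.36, 0.74 and 0.17), called lower by edgeR. *Eomes* was not called (4.98 CPM against 4.95, 7.75 and 5.18). The part of other cell types in the SLC results was not tested.

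The question of the design is which genes differ between *Thop1*-KO and control cells. Replicate spread is known only for the subclones, as the control has 1 library, and the genotype cannot be told apart from the single control culture, library or the cloning itself. Exact permutation of 1 against 3 libraries reaches a one-sided p of 0.25 at the smallest, so every adjusted p rests on edgeR's variance model over 15028 genes. In bulk RNA, fewer cells of a type and less RNA per cell cannot be told apart.

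More SLC genes were higher than lower in the *Thop1*-KO subclones. At an adjusted p under 0.05 (edgeR's quasi-likelihood test, Benjamini-Hochberg adjustment over all genes tested), 23 of the 165 were higher (13.9%), 2 were lower (1.21%) and 140 were not called. Over all genes tested, 8.62% were higher and 5.17% lower, and among the 9695 protein-coding genes with at least 200 counts, 11.1% were higher and 5.48% lower. The share of SLC genes called higher was thus near that of other expressed protein-coding genes. The median log2 fold change was 0.38 over the 165 genes, 0.06 over all genes tested and 0.09 over the expressed protein-coding genes. The control lay below all 3 subclones in 86 SLC genes (52.1%), against 38.1% of all genes tested and 41.1% of expressed protein-coding genes. In 32 SLC genes (19.4%) the control lay above all of them, against 37.6% and 35.8%, and in 47 among them. DESeq2, the study's tool, called 34 higher and 4 lower, with 13.3% of its genes called higher and 6.8% lower, and its calls included all 25 of edgeR's. Leaving out a subclone moved the edgeR counts widely, to 9 higher and 0 lower without #3, 60 and 13 without #2, and 21 and 4 without #1. The share of all genes called in the fits without a subclone is not given here, so nothing particular to SLC genes is read from these counts. The genes called under every alternative in which they were tested were 8, namely *Slc6a6*, *Slc16a1*, *Slc45a4*, *Slc25a13*, *Slc35e1*, *Slc25a30*, *Slc9a8* and *Slc25a51*.

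The rule on summed counts gives the 3 subclones more weight than the control. Of the 165 genes, 20 had under 50 counts in the control, and 11 of the 23 called higher were among these 20. None had a subclone mean under 50. When at least 50 counts in the control were required instead, 12 of 149 SLC genes were higher and 3 lower. That rule leans the other way, as it removes genes low in the single control library. Its lower genes include *Slc10a5*, with 57 counts in the control and 68 summed. The share of all genes called under it is not given here. When the control count plus the mean subclone count had to reach 100, 22 of 160 were higher and 2 lower. For this rule too, the share of all genes called is not given here. Fold changes also moved with gene length over all expressed protein-coding genes, with medians from -0.25 in genes of 135 to 1541 bases to 0.38 in genes of 3621 to 24116 bases. After a correction of each library for length, the median of the SLC genes was 0.13 beside -0.09 over all genes, and 94 rather than 116 of the 165 had a log2 fold change above 0.

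**Figure D1:**
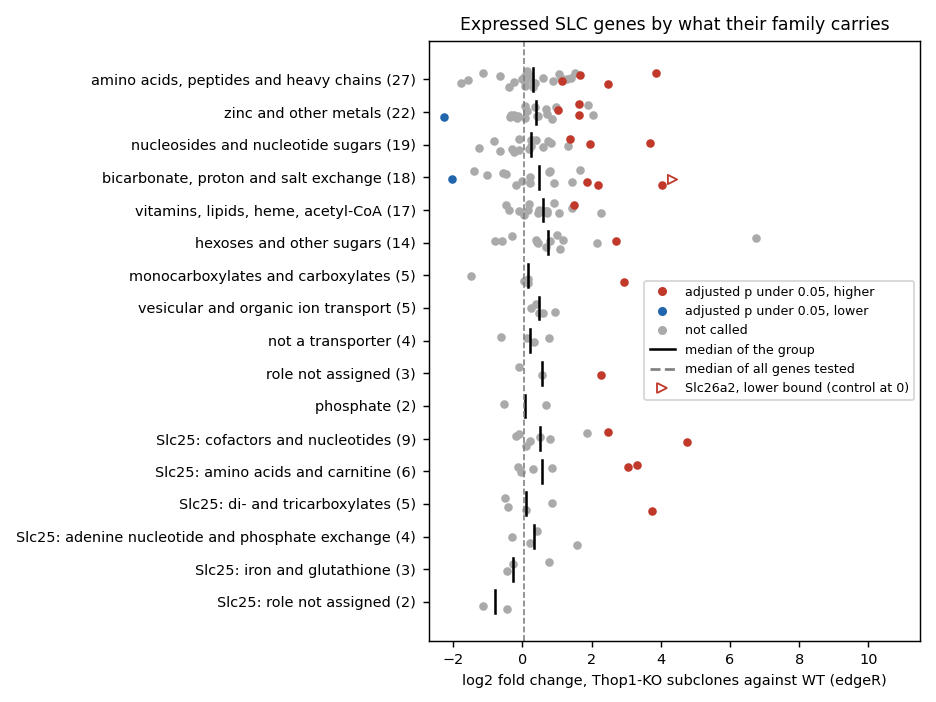
Each point is 1 of the 165 expressed SLC genes, placed by its log2 fold change in the *Thop1*-KO subclones against the control and by the substrate group of its family (number of genes in parentheses); black bars are group medians, the dashed line is the median of all genes tested (0.06), and the open triangle is *Slc26a2* at its lower bound. The 23 genes called higher are spread over most groups with 5 or more genes, and the 2 called lower lie among the metal carriers and the ion exchangers.

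The genes called higher came from many families rather than one. Of 27 members of the amino acid, peptide and heavy chain families, 4 were higher and 0 lower (median log2 fold change 0.30). Among 18 exchangers and cotransporters of bicarbonate, protons, sodium, chloride and calcium, 4 were higher and 1 lower (median 0.50). Of 22 carriers of zinc and other metals, 3 were higher and 1 lower (median 0.40), and of 19 in the nucleoside and nucleotide sugar families, 3 were higher and 0 lower (median 0.25). One of 14 in the sugar families was higher (median 0.75), as was 1 of 17 in the families of vitamins, lipids, heme and acetyl-CoA (median 0.59) and 1 of 5 monocarboxylate and carboxylate carriers (median 0.17). Neither of the 2 phosphate transporters and none of the 5 vesicular and organic ion transporters was called. With 11.1% of expressed protein-coding genes called higher, most of these groups lie within a few genes of that share, and nothing particular to a group is read from its count. These groups follow family numbers, so single members can carry something else, such as *Slc5a6*, a vitamin transporter in a sugar family.

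Short promoter sequences are shown for the called genes that held an E-box, the CACGTG motif bound by Myc and by the lysosomal regulators of the Tfeb family, because 4 genes called higher had one. Promoters were RefSeq sequences of 250 bases before the listed start in the assembly GRCr8, and 121 of the 165 genes were matched by symbol. Only the first listed promoter of each symbol was kept. In each line the capitals mark the motif, and the sequence runs 5′ to 3′ on the strand of the gene.
*Slc16a1* (upstream region chr2:194812410-194812659, plus strand, motif 216 bases before the start): gcagcgcctagtCACGTGgcgggaaggggg
*Slc25a51* (chr5:64459005-64459254, minus strand, 55 bases before): cggtgccctgttCACGTGatccgacaacgc
*Slc36a1* (chr10:39824785-39825034, plus strand, 41 bases before, with a further match at 13): ggagtggagcggCACGTGacttgggctccg
*Slc26a2* (chr18:56937013-56937262, minus strand, 16 bases before): acaccaccatgcCACGTGactgccacgc
The motif reads the same on both strands. It stood in 17 of the 121 SLC promoters (14%), in 4 of the 16 of genes called higher (25%) and in 13 of the 104 not called (12.5%). It stood in 5.79% of all 27453 promoters and in 8.93% of 7557 promoters of expressed protein-coding genes. With 4 of 16 promoters, nothing particular to the genes called higher is read from these shares. The motif AAGGTCA, on either strand, which Esrrb binds, was in 1 SLC promoter (0.826%), against 3.77% and 2.16% of the same sets. Median GC content was 62% in the SLC promoters and 60.8% in those of expressed protein-coding genes. A match describes the letters in the window and does not show binding.

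The amino acid carrier with the smallest p was *Slc6a6*, the sodium-dependent taurine transporter (ENSRNOG00000009019, chromosome 4, 123642210 to 123713464, minus strand, in the deposited annotation, whose build is not given in the sources used here). It had 30 counts in the control and 478, 538 and 543 in #1, #2 and #3, or 2.02 against 28.5, 30.4 and 30.2 CPM. The subclones lay close together and far above the control (log2 fold change 3.87, standard error 0.39, edgeR adjusted p = 0.00678). *Slc15a1*, the proton-coupled importer of di- and tripeptides, rose from 327 counts to 990, 1222 and 1456 (log2 fold change 1.66, standard error 0.32, edgeR adjusted p = 0.0232). *Slc36a1*, a proton-coupled amino acid carrier of lysosomes and the cell surface, had 44 counts in the control and 334, 192 and 340 in the subclones (2.48, standard error 0.52, edgeR adjusted p = 0.0294). Its lowest subclone was #2, which still lay above the control. *Slc38a10* had 510 counts against 1438, 1370 and 1187 (1.15, standard error 0.29, edgeR adjusted p = 0.0452), with no overlap of the groups. Its call held in only 6 of 12 alternatives.

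The abundant amino acid carriers were not among the called genes. *Slc7a5* and *Slc3a2* encode the light and heavy chain of a plasma membrane exchanger of large neutral amino acids. *Slc7a5* had 858 CPM in the control and 769, 871 and 1084 in the subclones, and *Slc3a2* had 750 against 840, 810 and 1141. The groups overlapped for *Slc7a5*, whereas for *Slc3a2* every subclone lay above the control. Log2 fold changes were 0.08 (standard error 0.25) and 0.31 (standard error 0.26), with edgeR adjusted p values of 0.843 and 0.434. Per kilobase of gene length, *Slc3a2* made up 59.5% of the pair in the control and 64.8%, 61.0% and 63.9% in #1, #2 and #3. *Slc7a3*, a cationic amino acid transporter, had 1115 CPM in the control and 111, 549 and 326 in the subclones. All subclones lay under the control, with #1 lowest, and the log2 fold change of -1.76 (standard error 0.67) was not called (edgeR adjusted p = 0.118). None of the 6 Slc7 genes was called, beside 11.1% of expressed protein-coding genes called higher and 5.48% lower. In none of the 6 did every subclone exceed the control, and in 2 every subclone lay under it. These shares were 41.1% and 35.8% over expressed protein-coding genes, and nothing particular to the family is read from 6 genes.

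Among carriers of monocarboxylates, *Slc16a1* (chromosome 2, 207108552 to 207128554, plus strand) was the one called. It encodes Mct1, a proton-linked transporter of lactate and pyruvate. It had 340 counts in the control and 3197, 2672 and 3276 in the subclones, or 22.9 against 191, 151 and 182 CPM. The 3 subclones agreed within a ratio of 1.26, and the log2 fold change was 2.93 (standard error 0.30, edgeR adjusted p = 0.00693). *Slc16a3*, which encodes the lactate exporter Mct4, had 135 CPM in the control and 94.7, 206 and 121 in the subclones, so the control lay inside their range (0.05, standard error 0.43, edgeR adjusted p = 0.942). Per kilobase, *Slc16a3* was 87.3% of the sum of both in the control and 36.6%, 61.3% and 43.5% in #1, #2 and #3. The larger share thus lay with *Slc16a3* in the control and in #2, and with *Slc16a1* in #1 and #3.

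In the sugar families, *Slc45a4*, of a family of proton-coupled sugar transporters, was called (chromosome 7, 114821971 to 114848414, minus strand). It had 276 counts in the control and 2172, 1950 and 2236 in the subclones, or 18.6 against 130, 110 and 124 CPM. The log2 fold change was 2.71 (standard error 0.29, edgeR adjusted p = 0.00705), and the groups lay far apart. The 6 Slc2 genes, the facilitative hexose transporters, had a median log2 fold change of 1.13 with none called, and in 5 of them every subclone exceeded the control, as in 38.1% of all genes tested and 41.1% of expressed protein-coding genes. *Slc2a1*, the widespread glucose transporter Glut1, had 816 CPM in the control and 1646, 1125 and 1192 in the subclones. Every subclone lay above the control, at a log2 fold change of 0.70 (standard error 0.28, edgeR adjusted p = 0.135). *Slc2a3*, the high-affinity glucose transporter Glut3, had 0.942 CPM in the control and 271, 10.7 and 27.4 in #1, #2 and #3. The highest subclone was 25.4 times the lowest, and the log2 fold change of 6.76 had a standard error of 2.41 (edgeR adjusted p = 0.103). Per kilobase, *Slc2a3* was 0.202% of the sum with *Slc2a1* in the control and 22.4%, 1.63% and 3.87% in the subclones.

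**Figure D2:**
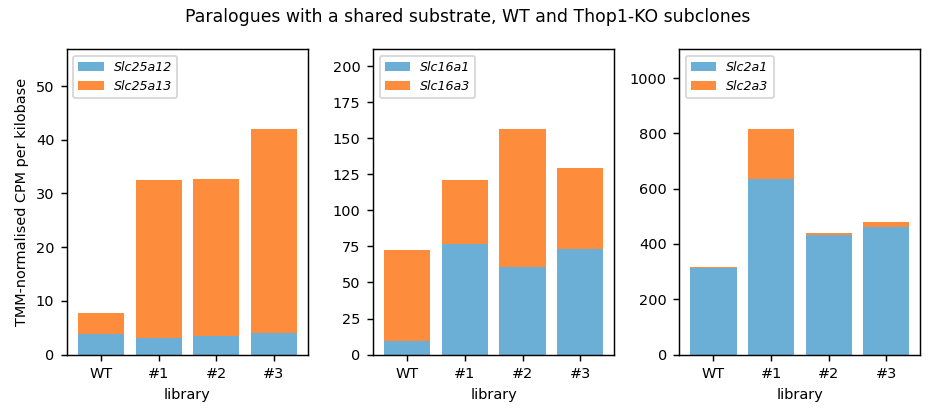
Stacked bars give TMM-normalised CPM per kilobase of gene length for 3 pairs of paralogues in the control (WT) and in subclones #1, #2 and #3, each bar being 1 library. *Slc25a13* takes 49.8% of its pair in the control and about 90% in every subclone (90.3%, 89.7% and 90.3%), *Slc16a1* grows in every subclone, and *Slc2a3* is visible mainly in #1 (22.4%).

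Among the ion exchangers and cotransporters, 4 genes rose and 1 fell. *Slc9a8*, a sodium-proton exchanger of the Golgi and endosomes (chromosome 3, 164174357 to 164222329, plus strand), had 37 counts in the control and 766, 442 and 929 in the subclones. Its lowest subclone, #2, had 25 CPM against 2.49 in the control, and the log2 fold change was 4.03 (standard error 0.58, edgeR adjusted p = 0.0116). *Slc26a2*, a sulfate transporter needed for the sulfation of proteoglycans, had 0 counts in the control and 37, 117 and 59 in the subclones. Set against a floor of 3 counts in the control library, the mean of the subclones was at least 19.99-fold higher (edgeR adjusted p = 0.0219). *Slc4a7*, a sodium-bicarbonate cotransporter, had 21 counts against 95, 90 and 89 (1.88, standard error 0.49, edgeR adjusted p = 0.0490), with all subclones alike and above the control. Its call held in only 6 of 12 alternatives.

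*Slc24a5*, a potassium-dependent sodium-calcium exchanger known from melanosomes, was lower in the subclones. It had 205 counts in the control and 58, 60 and 59 in #1, #2 and #3, or 13.8 against 3.46, 3.39 and 3.28 CPM. The subclones were almost identical, and the log2 fold change was -2.03 (standard error 0.35, edgeR adjusted p = 0.0181). Over the alternatives the adjusted p ran from 0.00146 to 0.0972, the latter with edgeR without #3. The gene (chromosome 3, 117335212 to 117354480, plus strand) overlaps *Myef2* on the minus strand, which had 75 counts in the control and 183, 262 and 236 in the subclones and was not called (edgeR adjusted p = 0.0654). The strand setting of the counting is not given in the sources used here, so reads of such a pair may not be told apart.

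Of the zinc importers, 1 fell and 1 rose. *Slc39a5*, which imports zinc across the plasma membrane (chromosome 7, 2813875 to 2819299, minus strand), fell from 27.5 CPM (409 counts) in the control to 6.02, 5.32 and 5.96 CPM in the subclones, with every subclone well under the control (log2 fold change -2.25, standard error 0.31, edgeR adjusted p = 0.00999). Over the alternatives, its adjusted p ranged from 1.85e-05 with DESeq2 to 0.0522 with edgeR without #3. *Slc39a5* overlaps *Ankrd52* on the opposite strand, which rose from 434 counts to 1231, 1563 and 1261 (edgeR adjusted p = 0.0285). *Slc39a1*, another zinc importer, rose from 855 counts to 2134, 1868 and 2098 (1.02, standard error 0.26, edgeR adjusted p = 0.0485). This call was unstable, as it held in only 5 of 12 alternatives. The 11 Slc39 genes had a median log2 fold change of 0.08, with 1 higher and 1 lower. Of 7 Slc30 genes, a family of zinc exporters, *Slc30a9* was called, with 84 counts in the control and 285, 287 and 345 in the subclones (1.63, standard error 0.36, edgeR adjusted p = 0.0346). *Slc31a1*, the high-affinity copper importer, had 182 counts against 646, 665 and 699 (1.65, standard error 0.30, edgeR adjusted p = 0.0203). Its 3 subclones agreed within a ratio of 1.03 and lay apart from the control.

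Many, but not all, members of the Slc35 family bring nucleotide sugars into the Golgi and endoplasmic reticulum. In this family, 3 of 17 genes were higher (17.6%) and none lower. Among expressed protein-coding genes, 11.1% were called higher and 5.48% lower. *Slc35e1*, a member with no assigned substrate here (chromosome 16, 19051965 to 19062515, plus strand), had 19 counts in the control and 299, 295 and 265 in the subclones. Its log2 fold change was 3.68 (standard error 0.44, edgeR adjusted p = 0.00783), and the subclones lay close together. *Slc35g1*, whose substrate is likewise not assigned here, had 183 counts against 582, 944 and 1004 (1.96, standard error 0.40, edgeR adjusted p = 0.0275). *Slc35a2*, the UDP-galactose transporter of the Golgi, had 245 counts against 719, 734 and 794 (1.38, standard error 0.29, edgeR adjusted p = 0.0292). *Slc35a1*, the transporter of CMP-sialic acid, had 16.9 CPM in the control and 6.32, 8.03 and 6.79 in the subclones and was just outside the threshold (-1.26, standard error 0.34, edgeR adjusted p = 0.0528). *Slc33a1*, which brings acetyl-CoA into the endoplasmic reticulum, rose from 243 counts to 910, 596 and 912 (1.5, standard error 0.38, edgeR adjusted p = 0.0475). That call held in only 7 of 12 alternatives. *Slc66a2*, whose substrate is not assigned here, had 132 counts against 963, 514 and 766 (2.28, standard error 0.47, edgeR adjusted p = 0.0289).

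**Figure D3:**
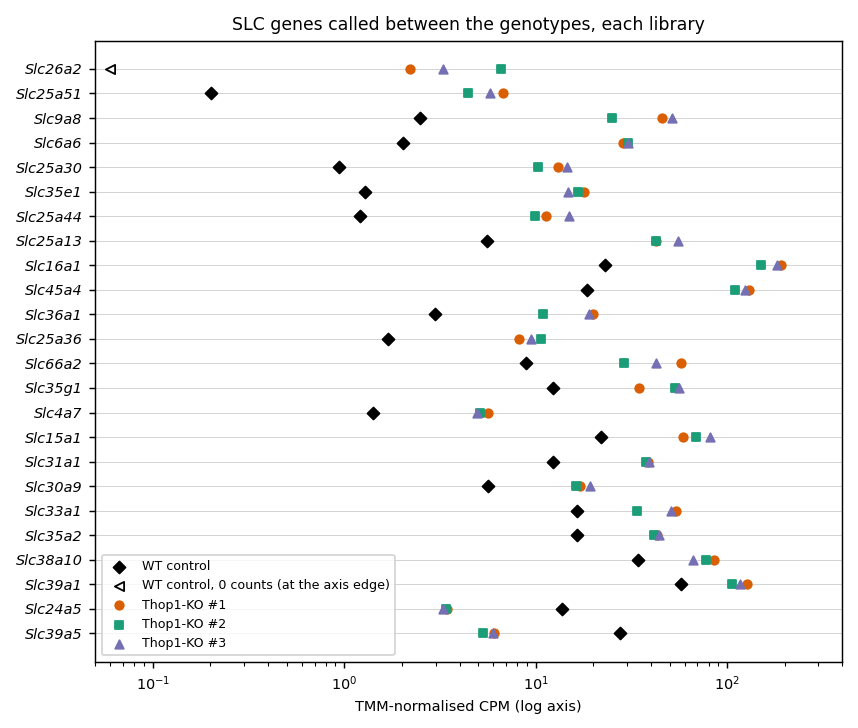
TMM-normalised CPM (log axis) of 24 of the called SLC genes, ordered by log2 fold change, with 1 symbol per library: black diamonds for the control, coloured symbols for subclones #1, #2 and #3, and an open triangle at the axis edge for the control at 0 counts. In all 24 genes the control lies outside the range of the subclones, above it in *Slc24a5* and *Slc39a5* and below it in the others. The call itself favours such a position.

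Of the 29 Slc25 carriers, 5 were higher (17.2%) and none was lower by edgeR at an adjusted p under 0.05. Beside this, 11.1% of expressed protein-coding genes were called higher and 5.48% lower. Nothing particular to the family is read from the absence of lower calls among 29 genes. The median log2 fold change of the Slc25 carriers was 0.23. DESeq2 called none of them lower either, beside 6.8% of all its genes. At an unadjusted p under 0.05 by edgeR were 7 of 29. The same held for 3610 of 9695 expressed protein-coding genes and 5110 of 15028 genes tested, which are larger shares. Of 6 carriers of amino acids and carnitine, 2 were higher, as were 2 of 9 carriers of cofactors and nucleotides and 1 of 5 in the group of di- and tricarboxylate carriers. None was called among 4 carriers of adenine nucleotides and phosphate, 3 of iron and glutathione and 2 with no assigned role.

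*Slc25a13* encodes citrin, a calcium-regulated aspartate-glutamate carrier of the malate-aspartate shuttle (chromosome 4, 31608269 to 31730386, minus strand). It had 83 counts in the control and 716, 754 and 992 in the subclones, or 5.59 against 42.7, 42.6 and 55.2 CPM. All subclones lay far above the control, at a log2 fold change of 3.07 (standard error 0.37, edgeR adjusted p = 0.00769). *Slc25a12*, the other aspartate-glutamate carrier, had 7.74 CPM in the control and 6.32, 6.73 and 8.13 in the subclones, with the control inside their range (-0.13, standard error 0.38, edgeR adjusted p = 0.828). The sum of both genes was 7.72 CPM per kilobase in the control and 32.6, 32.7 and 42.1 in #1, #2 and #3. *Slc25a13* took 49.8% of that sum in the control and 90.3%, 89.7% and 90.3% in the subclones. The sum therefore differed almost wholly through *Slc25a13*.

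*Slc25a44*, a carrier of branched-chain amino acids, had 18 counts in the control and 189, 176 and 267 in the subclones (log2 fold change 3.30, standard error 0.51, edgeR adjusted p = 0.0137). *Slc25a30*, a relative of the uncoupling proteins placed here with the dicarboxylate carriers, had 14 counts against 220, 182 and 261 (3.74, standard error 0.50, edgeR adjusted p = 0.00980). For both genes the lowest subclone was #2, which lay well above the control. *Slc25a36*, a carrier of pyrimidine nucleotides, had 25 counts against 137, 189 and 169 (2.48, standard error 0.46, edgeR adjusted p = 0.0211). *Slc25a51*, which carries NAD into mitochondria (chromosome 5, 60944563 to 60955943, minus strand), had 3 counts in the control and 113, 78 and 104 in the subclones. The ratio of subclones to control was 27.9, with a 95% interval for counting error of 9.45 to 136 (edgeR adjusted p = 0.0123). Without #3, *Slc25a44* and *Slc25a36* lost their calls (edgeR adjusted p = 0.0544 and 0.0950, the largest over their alternatives). The control level of *Slc25a51* rests on 3 reads, so its fold is poorly known. When at least 50 counts in the control were required, 1 of 24 Slc25 genes was called, since 4 of the 5 had fewer. Such a rule removes genes low in the control by design.

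The abundant Slc25 carriers did not pass the test. *Slc25a5*, an adenine nucleotide translocase that exchanges ADP for ATP, was the highest of all SLC genes per length, at a mean of 728 CPM per kilobase. It had 580 in the control and 704, 903 and 726 in the subclones on this scale, all above the control (log2 fold change 0.42, standard error 0.23, edgeR adjusted p = 0.241). *Slc25a3*, the phosphate carrier, had 431 against 325, 368 and 359, all under the control (-0.30, standard error 0.21, edgeR adjusted p = 0.341). *Slc25a1*, the citrate carrier, had 455 against 454, 230 and 343, with #1 nearly level with the control and #2 lowest (-0.41, standard error 0.36, edgeR adjusted p = 0.445). *Slc25a39*, which is linked to mitochondrial glutathione import, averaged 214 and *Slc25a11*, the oxoglutarate carrier, 135 CPM per kilobase, and in both the control lay inside the range of the subclones. *Slc25a5* made up 87.7% of the sum with its paralogue *Slc25a4* in the control and 88.8%, 87.9% and 90.9% in #1, #2 and #3. How reads shared by such close copies were assigned is not given, so their split is uncertain. Of the mitoferrin pair, which carries iron into mitochondria, *Slc25a28* took 79.6% of the sum with *Slc25a37* in the control and 63.9%, 64.7% and 58.5% in the subclones, with neither gene called.

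**Figure D4:**
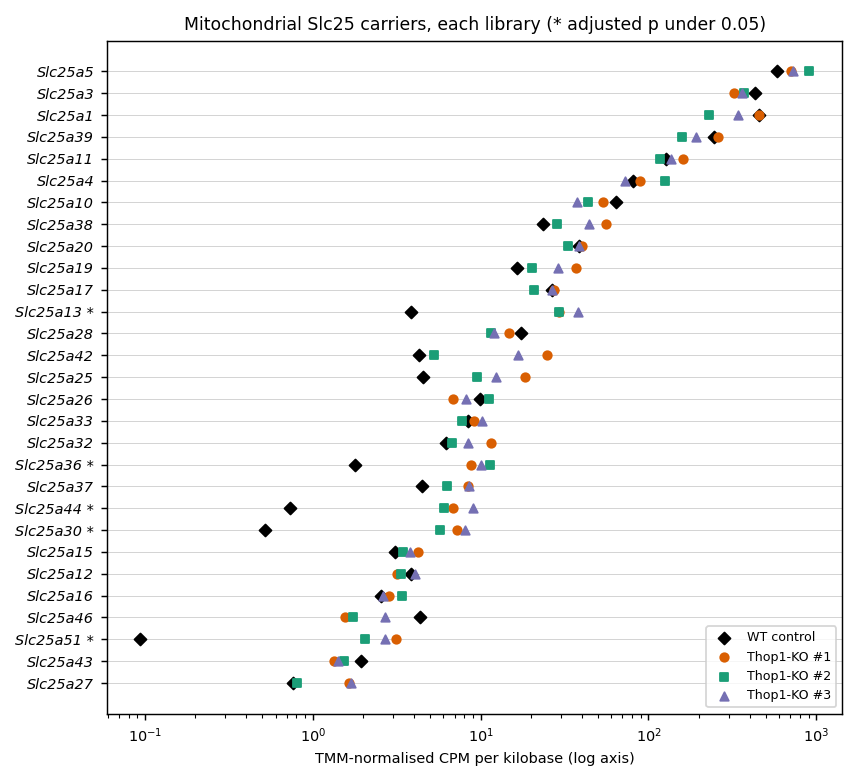
TMM-normalised CPM per kilobase of gene length (log axis) of the 29 Slc25 genes, ordered by mean level, with 1 symbol per library and a star for the genes called. The genes above 100 CPM per kilobase are not called, and the 5 starred genes (*Slc25a13*, *Slc25a36*, *Slc25a44*, *Slc25a30* and *Slc25a51*) have the control far to the left of all subclones.

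Expression levels of the 165 genes ranged from 0.637 to 728 CPM per kilobase, with a median of 9.71. Only 11 exceeded 100 CPM per kilobase and 83 lay under 10. Outside Slc25 the most abundant were *Slc2a1* at 461, *Slc3a2* at 431, *Slc20a1*, a sodium-phosphate cotransporter, at 292, *Slc7a5* at 259 and *Slc7a3* at 173 CPM per kilobase. None of these 5 was called. Together the 165 genes took 1.20% of all gene counts in the control and 1.48%, 1.41% and 1.51% in #1, #2 and #3. The Slc25 carriers made up 39.2% of the summed CPM per kilobase in the control and 34.8%, 37.7% and 33.5% in the subclones. *Slc20a1* had 620 CPM in the control and 1128, 705 and 1161 in the subclones, all above the control with #2 nearest to it (0.69, standard error 0.33, edgeR adjusted p = 0.187).

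Some SLC genes differed widely among the 3 subclones. The ratio of the highest to the lowest subclone had a median of 1.53 over the 165 genes, 1.41 over the Slc25 carriers and 1.41 over expressed protein-coding genes. It exceeded 2 in 36 SLC genes (21.8%, against 15.5% of expressed protein-coding genes). It exceeded 4 in 8 of the 165 SLC genes, against 194 of 9695 expressed protein-coding genes. After *Slc2a3*, the widest was *Slc6a9*, a glycine transporter, with 7.45, 36.5 and 45.1 CPM in #1, #2 and #3 and 38.8 in the control, a ratio of 6.05 that comes from the low value of #1. *Slc18a3*, the vesicular acetylcholine transporter, had 9.06, 1.87 and 9.29 CPM against 5.65, with #2 lowest. *Slc7a3* had a ratio of 4.95, with #1 lowest. *Slc25a42*, a mitochondrial carrier of coenzyme A, had 70, 14.8 and 47 CPM against 12.1 in the control, so #2 lay near the control and the others above it (log2 fold change 1.86, standard error 0.82, edgeR adjusted p = 0.165). On the log2 scale, #2 was the subclone nearest to the control in 105 of the 165 genes (63.6%, against 50.2% of expressed protein-coding genes), #1 in 32 and #3 in 28. Single libraries stand for the subclones here, so these differences have no replicates.

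**Figure D5:**
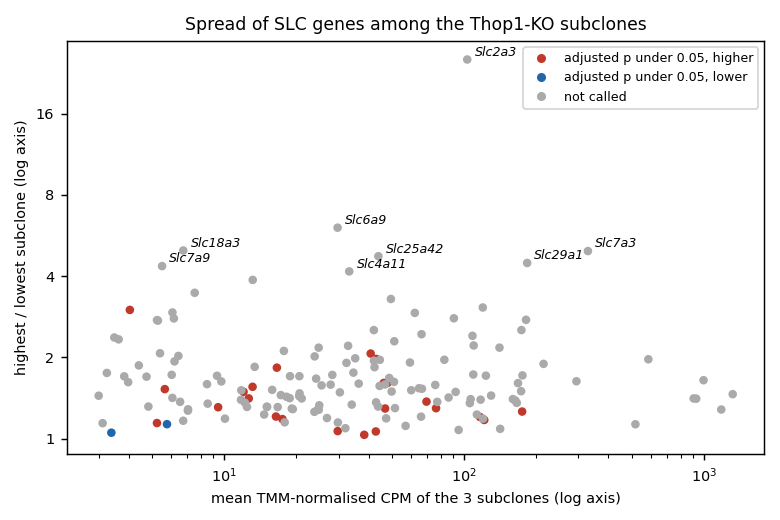
For each of the 165 SLC genes, the ratio of the highest to the lowest *Thop1*-KO subclone (log axis) is plotted against the mean TMM-normalised CPM of the subclones (log axis), with called genes in colour and genes with a ratio above 4 named. *Slc2a3* stands apart at 25.4, and the 23 genes called higher lie at ratios of up to 3.00. The test takes its spread from the subclones, so genes with a wide ratio are less readily called.

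Other genes of the carrier system were read from lists fixed by name. Of 30 symbols of SLC proteins named outside the Slc scheme, 28 tested genes included 3 higher and 0 lower (median 0.22). This share of 10.7%, like the 6.67% of the insertion route and the 11.1% of the channel and uniporter genes, is near the 8.62% of all genes tested. These were *Xpr1*, a phosphate exporter (log2 fold change 2.91), *Letm1*, a cation exchanger of mitochondria (1.78), and *Mfsd1* (1.47), with edgeR adjusted p values of 0.0199, 0.0161 and 0.0207. Of 13 tested partner proteins of SLC transporters, which include *Bsg*, the chaperone of Mct1, none was higher and *Atp1b3*, a sodium pump subunit, was lower (-0.94, edgeR adjusted p = 0.0370). This is 7.69% lower, beside 5.17% of all genes tested called lower and 8.62% higher, and nothing particular to the list is read from it. Of 15 tested genes of the route that inserts carriers into the inner mitochondrial membrane, *Tomm70*, an import receptor, was higher (1.29, edgeR adjusted p = 0.0335) and the median was -0.39. Of 9 outer membrane channel and calcium uniporter genes, *Mcu*, the pore of the uniporter, was called, with 7 counts in the control and 280, 220 and 343 in the subclones (5.07, standard error 0.57, edgeR adjusted p = 0.00705).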

How the data were processed

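Reads were cleaned by the authors with the FASTX toolkit, and raw counts per gene and FPKM values were deposited. The submitters' processing notes name HISAT2 2.0.5 and featureCounts 1.5.0-p3. The genome build, annotation and strand setting are not given in the sources used here. Groups came from the labels' genotype field, and the titles matched the table's columns to samples.

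Counts were analysed in R 4.3.3 with edgeR 4.0.16 (filterByExpr with a minimum count of 10, TMM, quasi-likelihood test, Benjamini-Hochberg adjustment, threshold 0.05). Standard errors are the log2 fold change divided by the square root of F. Deposited FPKM values served only for limma 3.58.1. Alternatives were other size factors, DESeq2 1.42.0, other filters, a loess correction for gene length (span 0.3), limma on log2(FPKM) with a pseudocount of 1 or 0.1, a fold change of at least 2, leaving out each subclone, and other count rules for the members. Scripts were checked on simulated data. Tables and figures used Python 3.11.15, pandas 2.3.3, numpy 2.4.6, scipy 1.17.1 and matplotlib 3.10.9. Promoters were from RefSeq (GRCr8). Intervals and floors cover counting error only.

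The genes named are up to 8 called genes with the smallest p in each direction (only 2 were lower), the called Slc25 carriers, the 5 most abundant in and outside Slc25, the 5 with the widest subclone spread at a mean of at least 5 CPM, those at the edge of the count rule, 6 pairs and *Thop1*. The other called genes, near misses and motifs were added after their values were seen. Members and lists were chosen with earlier results of these data known. The labels do not say that the subclones were cultured separately, so p-values measure the spread between these libraries, which may be technical. Of the called genes, 1 is counted but not reported by name here.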

Additional observations from a re-analysis of the deposited data

How the results depend on the processing

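No paired analysis was possible because the control has 1 library. Of the 25 called genes, 8 were called in every alternative in which they were tested (*Slc6a6*, *Slc16a1*, *Slc45a4*, *Slc25a13*, *Slc35e1*, *Slc25a30*, *Slc9a8* and *Slc25a51*), and 17 were lost in at least 1. Without 1 subclone, the SLC genes called higher numbered 9 without #3, 21 without #1 and 60 without #2, the genes called lower 0 without #3, 4 without #1 and 13 without #2, and the Slc25 genes called higher 3 to 9. The 9 calls made without #3 were all among the 25, and without #2 all 25 were called again. The cause of these differences was not tested. Without the share of all genes called in the same fits, which is not given here, they cannot be read as particular to SLC genes. With limma on log2(FPKM + 0.1), 15 SLC genes were higher. DESeq2 called 4 lower, and so did the length correction, which shared 21 calls with the 25. With at least 1000 summed counts, 14 of 115 SLC genes were higher and 0 lower, and 1 of 17 Slc25 genes was higher. The shares of all genes called with limma, with the length correction and under this count rule are not given here. Nothing particular to SLC genes is read from these counts. With at least 50 counts in the control, a rule added after seeing the data, 12 of 149 SLC genes and 1 of 24 Slc25 genes were higher. This rule removes genes low in the control and so leans against higher calls. No Slc25 gene was called lower in any alternative, and no gene named by the rule changed sign among its calls. In the main test 5.48% of expressed protein-coding genes were called lower, so nothing particular to Slc25 is read from the absence of lower calls. Depth limits the folds of *Slc25a51* and *Slc26a2*, with 3 and 0 counts in the control, and 1 control library limits every result.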

Other observations

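Among the 57 tested SLC genes under the count rule, 1 was called. Of all genes tested, 8.62% were called higher and 5.17% lower. *Slc10a5*, a member of the bile acid transporter family, had 57 counts in the control and 2, 5 and 4 in the subclones (log2 fold change -4.15, edgeR adjusted p = 0.0178, quasi-likelihood test with Benjamini-Hochberg adjustment), with every subclone under the control. It was named after its values were seen.

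The 13 SLC genes that DESeq2 called and edgeR did not included *Slc41a1*, a magnesium transporter (15.1 CPM in the control and 102, 34.8 and 50.3 in #1, #2 and #3), *Slc30a2*, a zinc exporter of vesicles (48.7 against 250, 90.6 and 204), and *Slc12a7*, a potassium-chloride cotransporter (64.9 against 205, 120 and 201). In each of these the subclones lay above the control with #2 nearest to it, and the edgeR adjusted p values were 0.0784, 0.0734 and 0.0529. Lower by DESeq2 but not by edgeR were *Slc35a1* and *Slc38a4*, a sodium-coupled amino acid transporter with 34.9 CPM in the control and 16, 19 and 12.5 in the subclones (edgeR adjusted p = 0.0642). These genes were named after their values were seen.

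By gene length, the SLC genes called higher were 5 of 19 at 135 to 1541 bases, 7 of 50 at 1542 to 2358, 8 of 55 at 2359 to 3618 and 3 of 41 at 3621 to 24116 bases. Of all expressed protein-coding genes in the same 4 length classes, 9.03%, 9.97%, 11.7% and 13.6% were called higher.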
